A study of Mus musculus with 45 samples.

Results

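Lin28a, Lin28b, Trim71, Igf2bp1, Igf2bp2, Igf2bp3, Hmga1, Hmga2 and Mycn form a set of genes that are known for their activity in embryonic cells and in many tumours. Most of them are silent in most adult tissues, whereas Igf2bp2 is known to stay widely expressed there. The 9 genes were taken by their symbol in the array's annotation, and each was read from its probe set of highest mean over all 45 arrays. Probe sets were found for 7 of the 9, among the 18145 genes measured, while Igf2bp2 and Hmga1 were not analysed here. The 7 genes had 22 probe sets between them, and those that went against the one used are given beside each gene.

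LIN28A and LIN28B are RNA-binding proteins that block the maturation of let-7 microRNAs. TRIM71, also called LIN41, is an RNA-binding ubiquitin ligase that silences target messages and is itself a let-7 target. IGF2BP1 and IGF2BP3 bind messages such as those of Igf2 and Myc and affect their stability and translation. HMGA2 is an architectural chromatin protein that bends AT-rich DNA, and its message is among the best known let-7 targets. MYCN is a MYC family transcription factor that drives proliferation, and in mice its loss in the heart impairs growth of the ventricular wall. Let-7 microRNAs are low in early embryos and accumulate as tissues differentiate.

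The study followed heart development in wild-type CD1 mice on Affymetrix arrays, with 3 arrays in each of 15 groups. The earliest groups were R1 embryonic stem cells (ESC), E7.5 embryos taken whole, and the E8.5 heart tube. Ventricles, left apart from right, came from embryos of E9.5, then of E12.5 and E14.5, from fetuses of E18.5, from pups of postnatal day 3 and from adults. Each array held a pool of about 30 to 50 embryos or hearts at E7.5, E8.5 and E9.5, of 10 to 20 at the stages of E12.5 and E14.5, and of 3 to 5 at E18.5, while day 3 and adult arrays held a single heart. The ESC are a single cell line rather than tissue of the CD1 mice, and E7.5 embryos hold far more than cardiac precursors. The postnatal hearts were pulverised frozen. Tissue and handling thus changed along with stage. In RNA of whole tissue, fewer cells of a type and less RNA per cell cannot be told apart.

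Values are log2 RMA values (robust multi-array average), so a difference of 1 is a 2-fold change. They ran from 2.07 to 15.2 over all arrays, with array medians of 5.35 to 5.47, and 5% of all values lay below 2.92. Values near 3 are therefore called near background here. Cardiomyocyte markers averaged 12.47 to 13.54 from E8.5 on, against 5.39 to 6.03 in ESC and E7.5 embryos. By a mean marker level over 1 log2 unit above the other replicates of the group, 9 arrays were raised in markers of another tissue. The lists raised were those named trophoblast, visceral endoderm, embryonic red cell and atrial muscle. These are names of lists only, and the tissue that the RNA came from was not identified. The 9 arrays were 1 each of E7.5, E8.5, left and right ventricles at E9.5 and E14.5, left ventricle at E18.5 and both adult ventricles. Calls of the members that changed when those 9 arrays were left out are given beside the result.

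Let-7 levels were not analysed here, and the let-7 sequences are shown because LIN28A, TRIM71 and HMGA2 are tied to them. All 9 mature let-7 names of the 5′ arm in RefSeq (GRCm38.p6) share bases 2 to 8, the seed that pairs with target messages, printed here in capitals. The sequences of let-7a at chr13:48538239-48538260 (minus strand), let-7g at chr9:106178846-106178867 (plus strand) and miR-98 at chrX:151913229-151913250 (plus strand) differ after the seed:
mmu-let-7a-5p: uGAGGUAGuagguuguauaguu
mmu-let-7g-5p: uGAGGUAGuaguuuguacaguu
mmu-miR-98-5p: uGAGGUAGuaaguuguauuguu

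LIN28 proteins bind the loop of the let-7 hairpin, where a GGAG motif is known to contact their zinc knuckles. The letters GGAG stood in the loop of 9 of the 12 let-7 family hairpins in RefSeq, and were absent from those of let-7b, let-7c-2 and miR-98. The let-7g hairpin at chr9:106178840-106178927 (plus strand) holds the motif and the let-7b hairpin at chr15:85707319-85707403 (plus strand) does not. Capitals mark the seed and, where present, GGAG:
let-7g hairpin: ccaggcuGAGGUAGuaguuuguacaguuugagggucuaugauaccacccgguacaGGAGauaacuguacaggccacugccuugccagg
let-7b hairpin: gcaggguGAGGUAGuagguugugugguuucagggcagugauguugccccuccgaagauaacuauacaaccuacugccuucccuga

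Over the whole course the members fell at different stages. Lin28a and Trim71 were high in ESC, E7.5 embryos and heart tubes and lost most of their signal by E12.5. Hmga2 first rose to a maximum in the E8.5 heart tube and then fell at every later step, and Mycn fell in stages through to the adult. By the probe sets used, all 7 members were lower at E18.5 than at E9.5, where 55.6% of all genes were called, 26.9% of them all as lower. All 7 were also lower in the adult than at E9.5, where 74.6% of all genes were called and 33.0% were lower. Of 3 Mycn probe sets, 1 was called higher over each span. The fall of Lin28b at E18.5 lost its call without E9.5 replicate 3 (-0.15, adjusted p = 0.274) or E18.5 replicate 2 or 3 (0.0596 and 0.101), with only the groups compared (0.0557) and with arrays scaled to housekeeping genes (-0.19, adjusted p = 0.135). Its fall in the adult lost the call with right ventricles only (-0.20, adjusted p = 0.0938), against -0.59 with both ventricles. Called means a Benjamini-Hochberg adjusted p under 0.05 over all genes in limma. The members' median change was -2.09 for E18.5 minus E9.5 and -3.92 for adult minus E9.5, on the log2 scale, beside medians of 0.06 and 0.13 over all genes.

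**Figure D1:**
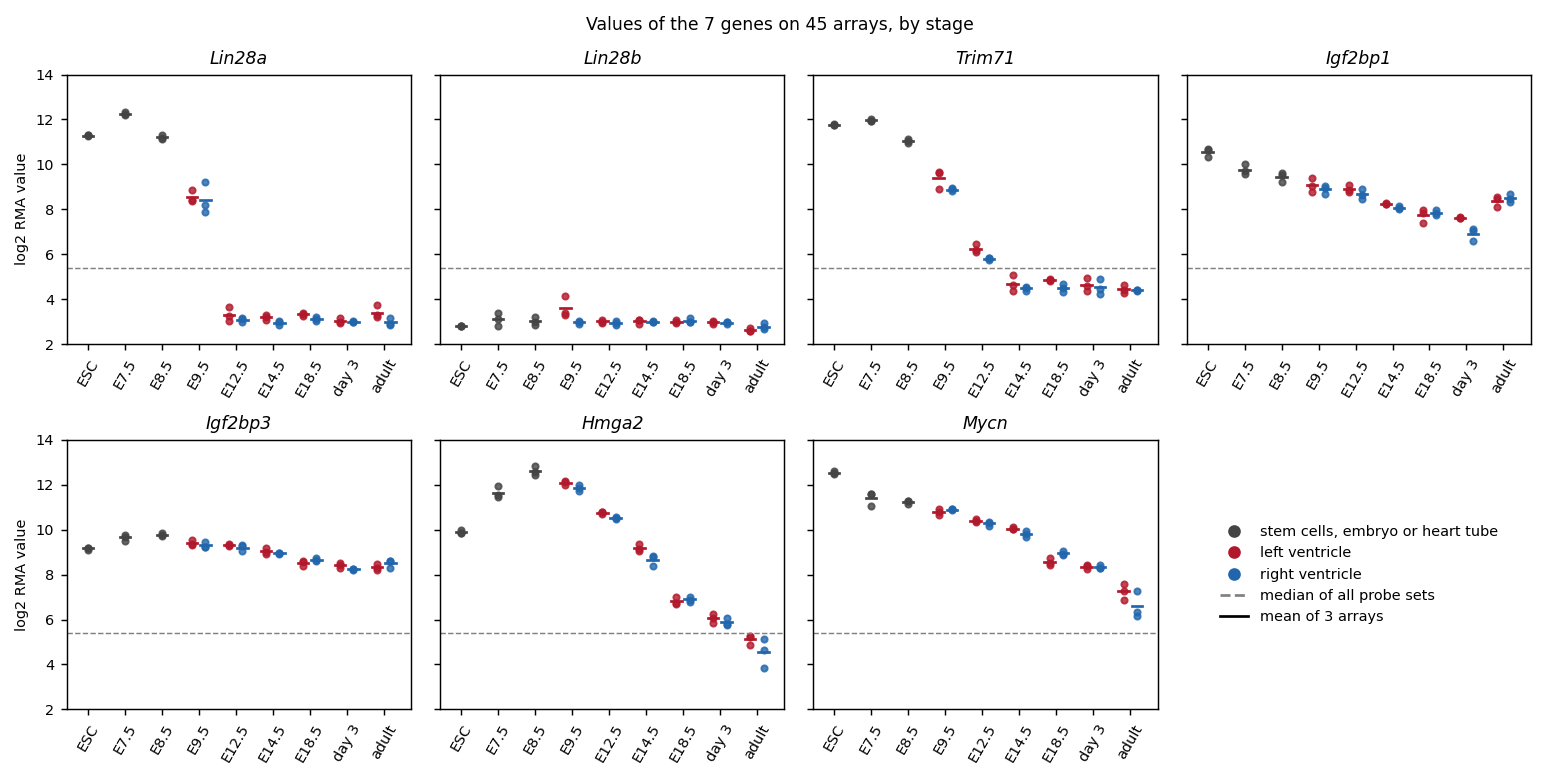
Log2 RMA values of the 7 genes on each of the 45 arrays (points) with the mean of 3 arrays (bars), from ESC to adult, with left ventricles drawn left of right ventricles. Lin28a drops to between 2.98 and 3.66 on the 6 arrays of E12.5, against 7.90 to 9.23 on the 6 arrays of E9.5, while Hmga2 and Mycn decline over several stages and Lin28b stays near the lower end of the scale.

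Lin28a was measured at 11.30, 11.26 and 11.30 on the 3 ESC arrays, at 12.32, 12.21 and 12.23 in E7.5 embryos and at 11.30, 11.18 and 11.14 in E8.5 heart tubes. At E9.5 its values were 8.38, 8.86 and 8.42 in left ventricles and 9.23, 7.90 and 8.17 in right ventricles. At E12.5 they were 3.25, 3.04 and 3.66 in left and 3.14, 2.98 and 3.14 in right ventricles. The groups of neighbouring stages did not overlap up to E12.5, and from there on all ventricle arrays lay between 2.84 and 3.73.

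Lin28a was higher in E7.5 embryos than in ESC by 0.97 (SE 0.12, adjusted p = 1.97e-07). It fell by 1.04 in E8.5 heart tubes relative to E7.5 embryos, by 2.72 at E9.5 relative to E8.5 (adjusted p = 7.4e-14) and by 5.29 at E12.5 relative to E9.5 (SE 0.12, adjusted p = 2.26e-19). The values at E12.5 lay near background, and with the mean of both probe sets the change was -3.23, also called. At the 4 later steps no change of Lin28a was called, with differences between -0.22 and 0.18. With arrays scaled to housekeeping genes the last, adult relative to day 3, was called at 0.50 (adjusted p = 0.00139), both stages being near background. The other Lin28a probe set also fell at E8.5, E9.5 and E12.5, by 1.35, 3.09 and 1.18, so that its largest fall came at E9.5 relative to E8.5. It did not pass the threshold at E7.5 relative to ESC (0.09, adjusted p = 0.818).

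Markers of non-cardiac epithelium fell beside Lin28a at E8.5 and E9.5, and fewer of them at E12.5. Of 10 markers of foregut and epithelium, 8 fell at E9.5 relative to E8.5 (27% of all genes called). Their mean level was 5.61 to 6.37 on the 6 arrays of E9.5, against 8.05 to 8.96 on the 3 arrays of E8.5. At E8.5 relative to E7.5 7 of the 10 fell (48.6% of all genes called). At E12.5 3 of the 10 fell (38.2% of all genes called), with a mean level of 5.19 to 5.33, against 5.61 to 6.37 at E9.5. That mean at E9.5 already lay near the array medians of 5.35 to 5.47, with less room for a further fall. The right ventricle array with the highest Lin28a at E9.5, 9.23, also had the highest mean of that marker list, 6.37, and a trophoblast marker mean of 4.91, where the other right ventricle arrays of E9.5 had 3.73 and 3.85. All 10 markers of visceral endoderm fell at E8.5 relative to E7.5, with a mean level of 6.35 to 9.94 at E8.5, against 11.459 to 12.498 at E7.5, and 9 of 10 fell at E9.5, where the mean was 5.12 to 6.31. At E12.5 relative to E9.5 all 10 leukocyte markers rose, with a mean level of 7.31 to 7.48 at E12.5, against 5.21 to 5.45 at E9.5, and 7 of 9 markers of dividing cells fell. The part of these markers in the falls of Lin28a and Trim71 was not tested. Without the arrays of raised markers, Lin28a fell by 5.14 at E12.5 relative to E9.5 (adjusted p = 2.46e-14).

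Lin28b, the paralog of Lin28a and likewise a let-7 inhibitor, stayed near background at every stage. Its single probe set read 2.79, 2.80 and 2.78 in ESC, 3.37, 2.82 and 3.13 in E7.5 embryos and 3.19, 3.00 and 2.87 in heart tubes. Its highest values were 3.28, 3.39 and 4.13 in left ventricles at E9.5, against 2.91, 3.04 and 2.99 in right ventricles. Its lowest were 2.56, 2.72 and 2.59 in adult left and 2.92, 2.67 and 2.74 in adult right ventricles.

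Calls were made for Lin28b at 2 of 8 steps, a rise of 0.32 at E7.5 relative to ESC (adjusted p = 0.0197) and a fall of 0.32 at E12.5 relative to E9.5 (adjusted p = 0.0247). Each lost its call when single replicates were left out (the E7.5 replicates 1 or 3, and the E9.5 replicate 3 or the E12.5 replicates 2 or 3), and the fall at E12.5 was -0.18 (adjusted p = 0.219) without E9.5 replicate 3, whose left ventricle read 4.13. With right ventricles only the change at E12.5 was -0.04 (adjusted p = 0.805). The rise at E7.5 lost its call with only the groups compared (adjusted p = 0.125) and with left ventricles only (0.107). The changes of Lin28a and Lin28b were set against each other in the same fit. At E9.5 relative to E8.5 the change of Lin28a lay 2.99 below that of Lin28b (adjusted p = 1.02e-11), which was 0.27 and not called (adjusted p = 0.072). At E12.5 relative to E9.5 Lin28a fell more than Lin28b by 4.97 (adjusted p = 6.96e-16). Without the arrays of raised markers Lin28b was also called at E9.5 relative to E8.5 (0.36, adjusted p = 0.0305) and in the adult relative to day 3 (-0.30, adjusted p = 0.0099). As Lin28b sat near background, its probe set could show little of a fall.

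Trim71 followed Lin28a with one more step. Its values were 11.77, 11.78 and 11.74 in ESC, 11.94, 11.94 and 12.01 in E7.5 embryos and 10.96, 11.15 and 11.04 in heart tubes. At E9.5 the 6 ventricle arrays had a lowest value of 8.80, a median of 8.94 and a highest of 9.67, and at E12.5 a lowest of 5.75, a median of 5.97 and a highest of 6.44. At E14.5 the lowest was 4.35, the median 4.53 and the highest 5.06, and later stages stayed within 4.25 to 4.92. No 2 neighbouring stages overlapped between E7.5 and E14.5.

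Trim71 fell by 0.91 at E8.5 relative to E7.5 (adjusted p = 3.08e-08), dropped by 1.91 at E9.5 relative to E8.5 and fell by 3.11 at E12.5 relative to E9.5 (SE 0.10, adjusted p = 1.14e-16), a step at which 3 genes fell more. It fell again at E14.5 relative to E12.5 (-1.45, adjusted p = 8.76e-10), where no change of Lin28a was called, and 14 genes fell more at that step. Its difference of 0.20 at E7.5 relative to ESC did not pass the threshold (adjusted p = 0.0935), but did with the mean of both probe sets (0.20, adjusted p = 0.0258) and with arrays scaled to housekeeping genes (0.50, adjusted p = 0.000158). The other Trim71 probe set fell at the same 4 steps. Over the 15 group means Lin28a and Trim71 had a Pearson r of 0.98, given as a description, both genes having been read on the same arrays.

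Lin28a and Trim71 moved most alike among the members, and their promoters are shown for comparison with that of Igf2bp3. RefSeq windows (GRCm38.p6) of 250 bases before to 50 after the start were searched on both strands for an E-box CACGTG, the site of MYC proteins (7.15% of 32851 promoters), a GC box GGGCGG (35.66%), an octamer ATGCAAAT (1.74%) and CCAAT (37.41%). The motifs do not overlap one another in these windows, and 6 of the 7 members had a window. Lin28a at chr4:134018767-134019066 (minus strand) held 1 GC box on the other strand, and Trim71 at chr9:114564320-114564619 (minus strand) held 1 GC box and 1 CCAAT. Igf2bp3 at chr6:49214905-49215204 (minus strand) held 2 E-boxes and 1 CCAAT, and among the windows not printed Lin28b held 1 E-box and those of Hmga2 and Mycn no E-box. Capitals mark the matches, which describe these letters only, and no member's window held the octamer:
Lin28a promoter: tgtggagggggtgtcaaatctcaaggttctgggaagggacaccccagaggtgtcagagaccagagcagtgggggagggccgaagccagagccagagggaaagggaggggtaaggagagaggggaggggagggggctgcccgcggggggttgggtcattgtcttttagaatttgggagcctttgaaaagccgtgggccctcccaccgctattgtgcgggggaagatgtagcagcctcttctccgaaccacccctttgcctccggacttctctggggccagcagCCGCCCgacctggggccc
Trim71 promoter: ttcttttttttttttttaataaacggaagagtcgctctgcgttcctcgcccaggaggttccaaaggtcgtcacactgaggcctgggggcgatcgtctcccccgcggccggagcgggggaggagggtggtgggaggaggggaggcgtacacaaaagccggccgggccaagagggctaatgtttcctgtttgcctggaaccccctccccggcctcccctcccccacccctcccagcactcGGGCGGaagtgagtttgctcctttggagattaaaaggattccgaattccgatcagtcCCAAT
Igf2bp3 promoter: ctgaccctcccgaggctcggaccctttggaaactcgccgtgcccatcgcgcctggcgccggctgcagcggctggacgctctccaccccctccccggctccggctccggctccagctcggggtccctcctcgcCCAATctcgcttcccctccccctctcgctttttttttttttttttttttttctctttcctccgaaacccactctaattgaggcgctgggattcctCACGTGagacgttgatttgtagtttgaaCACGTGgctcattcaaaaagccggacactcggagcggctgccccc

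The 2 IGF2BP genes were read from probe sets that went against their other probe sets. Igf2bp1's probe set of highest mean, 1459825_x_at, averaged 10.56 ± 0.19 in ESC, 9.76 ± 0.23 in E7.5 embryos and 9.46 ± 0.21 in heart tubes (SD, n = 3). Over 6 ventricle arrays a stage its medians were 8.995 at E9.5, 8.81 at E12.5, 8.19 at E14.5, 7.83 at E18.5, 7.36 at day 3 and 8.46 in the adult. By this probe set Igf2bp1 fell at 5 of 8 steps, by 0.37 to 0.80, and was higher in the adult than at day 3 by 1.15 (SE 0.13, adjusted p = 5.67e-08). Its change at E8.5 relative to E7.5 (-0.30, adjusted p = 0.0553) was called in some alternatives. Among them were the fits without E7.5 replicate 3 or E8.5 replicate 1 (adjusted p = 0.0245 and 0.032). The other 3 probe sets were called lower at that step (-0.52, -0.42 and -0.44, adjusted p from 0.00288 to 0.0249). By the probe set used, the fall of Igf2bp1 at E9.5 relative to E8.5 lost the call in 2 of 16 alternative fits (adjusted p up to 0.112). One of them was the fit without E9.5 replicate 1 (-0.35, adjusted p = 0.0628). Its fall at E18.5 relative to E14.5 lost the call without E14.5 replicate 1 or 3 or E18.5 replicate 2 or 3 (adjusted p from 0.0501 to 0.119), and without the arrays of raised markers (-0.27, adjusted p = 0.0888). With right ventricles only that change was -0.22 (adjusted p = 0.347). The fall at day 3 relative to E18.5 was -0.1 with left ventricles only (adjusted p = 0.739).

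The other 3 probe sets of Igf2bp1 fell in the adult relative to day 3 (-0.55, -0.61 and -1.48), with adjusted p from 2.03e-08 to 0.00625. In adult left ventricles they averaged 4.91 ± 0.24, 4.59 ± 0.35 and 3.35 ± 0.16, against 9.94 ± 0.23, 9.72 ± 0.11 and 10.62 ± 0.12 in left ventricles at E9.5 (SD, n = 3 each). Between E9.5 and the adult they changed by -5.13, -4.84 and -7.004, where the probe set of highest mean changed by -0.55. The suffix of 1459825_x_at is Affymetrix's mark for a probe set in which some probes also match other sequences, and its part in the adult rise was not tested. All 4 probe sets fell at the 3 steps from E12.5 to day 3. At E12.5 relative to E9.5 the other 3 fell (-1.71, -1.23 and -0.997), where the probe set of highest mean changed by -0.19 (adjusted p = 0.264).

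Igf2bp3's probe set of highest mean, 1433731_at, moved by at most 0.48 at any step. It read 9.11, 9.20 and 9.21 in ESC, 9.68, 9.51 and 9.78 in E7.5 embryos and 9.71, 9.75 and 9.85 in heart tubes. Its medians over 6 ventricle arrays were 9.34 at E9.5, 9.29 at E12.5, 8.96 at E14.5, 8.62 at E18.5, 8.28 at day 3 and 8.39 in the adult. It rose by 0.48 at E7.5 relative to ESC (adjusted p = 5.85e-06) and fell by 0.27 to 0.41 at 4 later steps, and adult and day 3 hearts differed by 0.09 (adjusted p = 0.335), or by 0.41 (adjusted p = 7.71e-05) with arrays scaled to housekeeping genes. Its fall at E14.5 relative to E12.5 lost the call in 5 of 16 alternative fits (adjusted p up to 0.0911). Among them were those without E12.5 replicate 1 or 2 or E14.5 replicate 1 (adjusted p from 0.0568 to 0.0851). The fall at day 3 relative to E18.5 lost it without E18.5 replicate 1 or day 3 replicate 2 (0.0555 and 0.0507). With left ventricles only that change was -0.10 (adjusted p = 0.515).

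The other 5 probe sets of Igf2bp3 fell in the adult relative to day 3, with changes of -1.62, -2.16, -2.91, -2.96 and -3.98 (largest adjusted p = 8.78e-11). In adult left ventricles they averaged between 2.86 and 5.22, against 8.41 to 10.81 in left ventricles at E9.5. At E12.5 relative to E9.5 those 5 also fell, by changes of -0.37 to -0.66, where the probe set of highest mean changed by -0.10 (adjusted p = 0.328). All 6 probe sets rose at E7.5 relative to ESC, and all 6 fell at day 3 relative to E18.5. Taking the mean of all probe sets gave a change of -2.26 in the adult relative to day 3 for Igf2bp3 (adjusted p = 7.97e-16) and of -0.37 for Igf2bp1 (adjusted p = 0.00431). By the probe sets of highest mean Igf2bp1 changed by -1.28 relative to Igf2bp3 at E7.5 minus ESC (adjusted p = 1.82e-08), by -0.42 at E8.5 minus E7.5 (adjusted p = 0.0116, and 0.194 without the arrays of raised markers) and by 1.06 at adult minus day 3 (adjusted p = 3.51e-07). No unequal change was called at the 5 steps from E8.5 to day 3, but with the mean of all probe sets it was at E12.5 (-0.54, adjusted p = 7.87e-06), E14.5 (-0.35, adjusted p = 0.00418) and day 3 (-0.57, adjusted p = 1.7e-05).

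**Figure D2:**
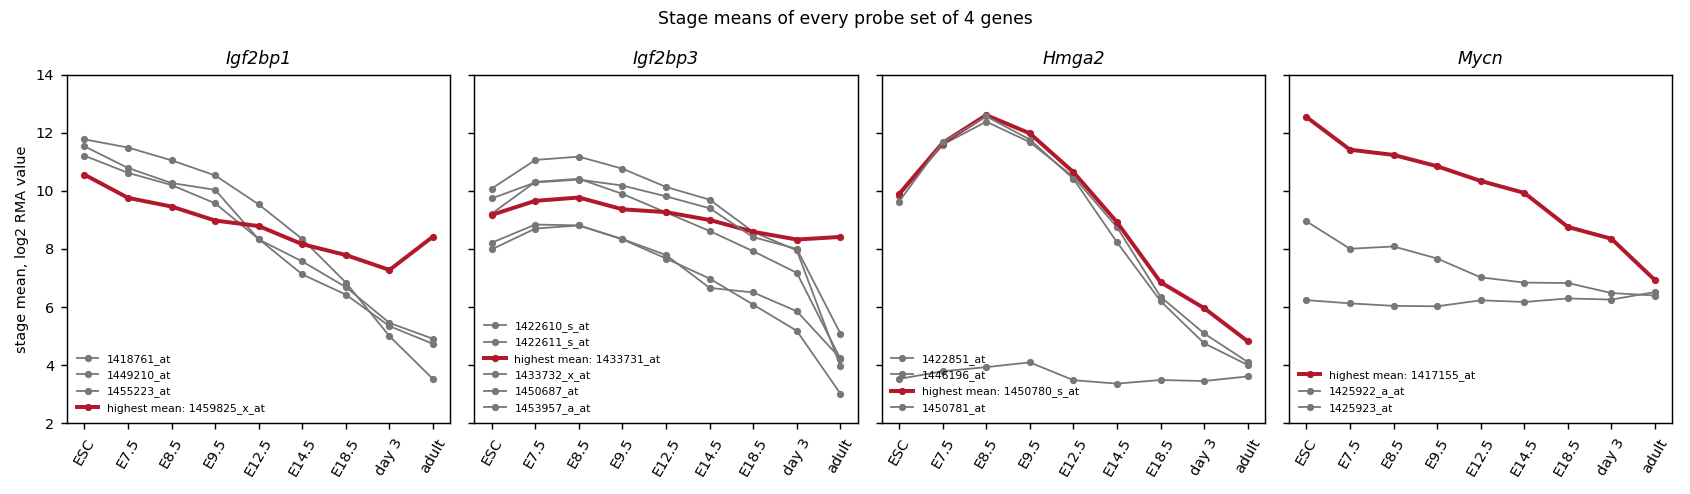
Stage means of log2 RMA values for every probe set of Igf2bp1, Igf2bp3, Hmga2 and Mycn, with the probe set of highest mean over all arrays in red and the others in grey, from ESC to adult. In the adult, the red line of Igf2bp1 lies 1.15 above day 3 and that of Igf2bp3 stays level, while their grey lines fall, and each of the other 2 genes has at least 1 grey line that changes little.

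Hmga2 had the largest fall of the 7 members between E9.5 and the adult. It read 9.84, 10.01 and 9.83 in ESC, 11.96, 11.45 and 11.54 in E7.5 embryos and 12.82, 12.42 and 12.58 in heart tubes. Over 6 ventricle arrays its medians were 11.98 at E9.5, 10.65 at E12.5, 8.92 at E14.5, 6.85 at E18.5, 5.94 at day 3 and 4.99 in the adult. The ranges of neighbouring ventricle stages did not overlap, with 5.25 as the highest array in the adult, against 5.76 as the lowest at day 3.

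Hmga2 rose by 1.76 at E7.5 relative to ESC (SE 0.15, adjusted p = 5.69e-10) and by 0.96 at E8.5 relative to E7.5 (adjusted p = 8.43e-06). It then fell at all 6 later steps, with changes of -0.63 at E9.5, -1.33 at E12.5, -1.72 at E14.5, -2.06 at E18.5, -0.89 at day 3 and -1.14 in the adult, each relative to the stage before. The largest adjusted p among these was 0.00235. Adult ventricles were 142.1-fold lower than ventricles at E9.5 (log2 -7.15, SE 0.15, adjusted p = 6.4e-22). On the log2 scale and by the probe sets used, Hmga2 passed the midpoint between its highest stage and the adult at E18.5. Lin28a and Trim71 did so at E12.5. Lin28a lay near background from E12.5 on, and midpoints in amount of RNA were not taken. Of 9 markers of dividing cells, 1 fell at E9.5, 7 at E12.5, none at E14.5, 9 at E18.5, 1 at day 3 (where 1 rose) and 9 in the adult, each relative to the stage before. Their part in the falls of Hmga2 was not tested. Of its other probe sets, 2 rose and fell at the same steps. The remaining one, 1446196_at, was low at every stage and moved less, with calls at E7.5 relative to ESC (0.26, adjusted p = 0.0168) and at E12.5 relative to E9.5 (-0.61, adjusted p = 4.88e-06). Its change in the adult relative to E9.5 was -0.48 (adjusted p = 2.93e-05), with 3.69 ± 0.20 in adult left ventricles and 4.01 ± 0.27 in left ventricles at E9.5 (SD, n = 3 each).

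Mycn was highest in ESC, at 12.49, 12.51 and 12.61, and read 11.59, 11.05 and 11.61 in E7.5 embryos and 11.28, 11.13 and 11.29 in heart tubes. Its medians over 6 ventricle arrays were 10.89 at E9.5, 10.36 at E12.5, 9.98 at E14.5, 8.81 at E18.5, 8.33 at day 3 and 7.07 in the adult. It fell by 1.13 at E7.5 relative to ESC (adjusted p = 9.45e-07), by 0.51 at E12.5 relative to E9.5, by 1.17 at E18.5 relative to E14.5 (adjusted p = 2.23e-06) and by 1.43 in the adult relative to day 3 (SE 0.15, adjusted p = 2.43e-08). At E7.5 relative to ESC all 9 markers of pluripotent cells fell, with a mean level of 6.73 to 7.14 at E7.5, against 11.5 to 11.6 in ESC, and all 10 markers of visceral endoderm rose. Their part in that fall of Mycn was not tested. The drop at E12.5 had an adjusted p of 0.00917, and 0.0529 without the arrays of raised markers.

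The steps of Mycn between those 4 were all downward, by 0.18 to 0.41, and missed the threshold (adjusted p from 0.057 to 0.347). The one at E8.5 relative to E7.5 was called without E7.5 replicate 2, an array of raised trophoblast and red cell markers (-0.36, adjusted p = 0.0421). With only the groups compared, those at E9.5, E14.5 and day 3 were called (adjusted p = 0.00934, 0.00518 and 0.00237). Those at E9.5 and day 3 were also called with a filter on low values (adjusted p = 0.0468 and 0.0479), with housekeeping scaling (0.00444 and 0.0157) and with the mean of all probe sets (0.0256 and 0.0397), at E9.5 with left ventricles only (0.0334) and at day 3 with right ventricles only (0.0221). Adult ventricles were 15.1-fold lower in Mycn than ventricles at E9.5 (log2 -3.92, adjusted p = 5.93e-17). Its other probe sets showed less. Between E9.5 and the adult 1425922_a_at fell by 1.27 (adjusted p = 6.69e-10), while 1425923_at rose by 0.49 (adjusted p = 3.58e-05). Neither was called lower at E18.5 relative to E14.5 (-0.01 and 0.12, adjusted p = 0.96 and 0.405) or in the adult relative to day 3, where 1425922_a_at changed by -0.09 (adjusted p = 0.604) and 1425923_at rose by 0.26 (adjusted p = 0.0225). All 9 markers of dividing cells fell together with Mycn in the adult, with a mean level of 4.95 to 5.61 on adult arrays, against 9.31 to 9.56 at day 3. All 9 also fell at E18.5 relative to E14.5, and their part in the fall of Mycn was not tested.

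Counted step by step, the members' calls were set beside the share of all genes called. At E7.5 minus ESC, 4 rose and 2 fell of 7, with 49.5% of all genes called. At E8.5 minus E7.5, 1 rose and 2 fell (48.6% of all genes called). At E9.5 minus E8.5, 5 fell and none rose (27% of all genes called), and at E12.5 minus E9.5 again 5 fell and none rose (38.2% called). Lin28a, Trim71 and Hmga2 fell at both of these steps. Igf2bp1 and Igf2bp3 were not called at E12.5 minus E9.5, though 3 of 4 and 5 of 6 of their probe sets fell.

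At E14.5 minus E12.5, 4 members fell (13.3% of all genes called) and at E18.5 minus E14.5 also 4 (30.6% called). At day 3 minus E18.5, 3 fell (20.3% called), namely Hmga2, Igf2bp1 and Igf2bp3. With left ventricles only, Igf2bp1 and Igf2bp3 were not called there. In the adult minus day 3, 2 fell and 1 rose (48.8% called). The 1 that rose was Igf2bp1, of whose 4 probe sets 3 fell. Igf2bp3 was not called, though 5 of its 6 probe sets fell. From E9.5 to day 3 no member rose at any step.

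**Figure D3:**
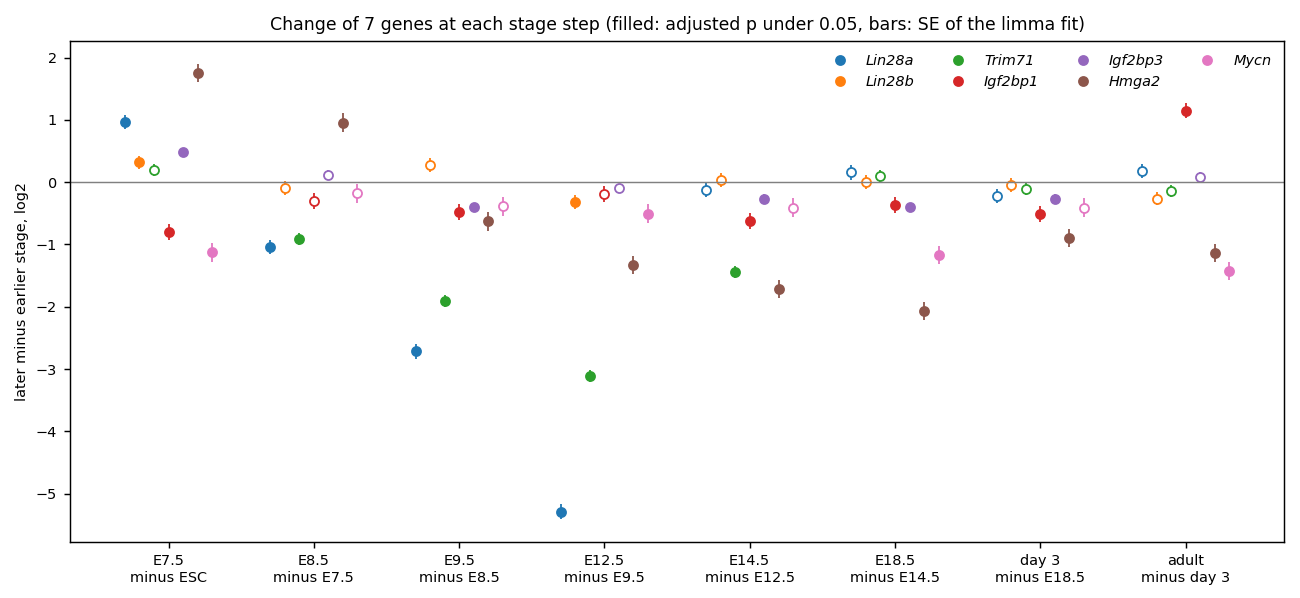
Change of each gene at the 8 stage steps (later minus earlier stage, log2), with the SE of the limma fit as bars and filled points where the adjusted p was under 0.05. The deepest points are Lin28a at -5.29 and Trim71 at -3.11 for E12.5 minus E9.5, and Hmga2 is lowest at -2.06 for E18.5 minus E14.5. The 1 filled point above 0 after E8.5 is Igf2bp1 at 1.15 for adult minus day 3, where 3 of its 4 probe sets fell.

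Few differences between left and right ventricles were called in these genes. At E9.5 1 of 7 members was called, with 3.5% of all genes called: Lin28b, at 3.28, 3.39 and 4.13 in left against 2.91, 3.04 and 2.99 in right ventricles, a difference of 0.62 (SE 0.13, adjusted p = 0.00271). Without the left ventricle array that read 4.13 it was 0.35 (adjusted p = 0.0826). No member was called at E12.5 (1.27% of all genes called), E14.5 (8.52%), E18.5 (4.98%), day 3 (0.00551%) or in the adult (0.0165%). At an unadjusted p under 0.05 there was 1 member at E12.5 (8.02% of all genes), 1 at E14.5 (24.1%), 2 at E18.5 (19.4%), 1 at day 3 (3.19%) and 4 in the adult (6.19%). By another probe set, Igf2bp1 was called higher in left ventricles at E14.5 (1418761_at, 1.07, adjusted p = 0.00109) and lower in them at E18.5 (1449210_at, -0.64, adjusted p = 0.0386).

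As the mean of 6 stages, 2 of 7 members were called higher in left ventricles, with 2.97% of all genes called. Trim71 averaged 5.70 in left and 5.43 in right ventricles, a difference of 0.27 (SE 0.07, adjusted p = 0.0122), and its other probe set differed by 0.02. Hmga2 averaged 8.34 in left and 8.06 in right ventricles, a difference of 0.28 (SE 0.07, adjusted p = 0.0321), and its other probe sets differed by 0.08 to 0.15. Leaving out any 1 of 7 arrays raised the adjusted p of Hmga2 to between 0.0512 and 0.0586: right ventricle replicate 1 at E9.5, 3 at E12.5, 1 at E14.5, 2 at E18.5 and 1 at day 3, and left ventricle replicate 2 at E14.5 and at day 3. Without the arrays of raised markers the mean differences of Lin28a (0.33, adjusted p = 0.00116) and Mycn (0.19, adjusted p = 0.00682) were called too, and those of Trim71 and Hmga2 were 0.29 and 0.31. In the F-test for a left-right difference that varies with stage, no member was called, with 5.87% of all genes called. At an unadjusted p 4 of 7 members lay under 0.05, as did 22.6% of all genes, with Mycn at 0.00375 and Lin28b at 0.00389.

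Mycn in the adult read 7.28, 6.86 and 7.60 in left and 6.16, 6.36 and 7.28 in right ventricles, a difference of 0.65 (adjusted p = 0.264). The groups overlapped through the right ventricle array at 7.28, whose atrial muscle markers averaged 10.4, 2.48 above the other right ventricle arrays. Without that array the difference of Mycn was 0.99 (adjusted p = 0.000461) and that of Hmga2 0.87 (adjusted p = 0.0151), and without left ventricle replicate 2, also raised in atrial markers, the difference of Mycn was 0.84 (adjusted p = 0.0414). Both are among the 9 arrays of raised markers, which were chosen after seeing the data. Without those 9 the differences were 1.18 for Mycn (adjusted p = 3.63e-07) and 1.001 for Hmga2 (adjusted p = 0.00425). On all arrays, the other probe sets differed in the adult by -0.037 and 0.085 for Mycn. Those of Hmga2 differed by 0.095, 0.150 and -0.140, and none of these differences was called. At E9.5, without the arrays of raised markers, Lin28a differed by 0.61 (adjusted p = 0.0309) and Trim71 by 0.80 (adjusted p = 0.00539), both higher in left ventricles. Trim71 differed by 0.76 (adjusted p = 0.00257) without left ventricle replicate 1 alone. Markers of pluripotent cells averaged 4.66 to 4.70 in left and 5.31 to 5.42 in right ventricles of E9.5, and their part was not tested.

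**Figure D4:**
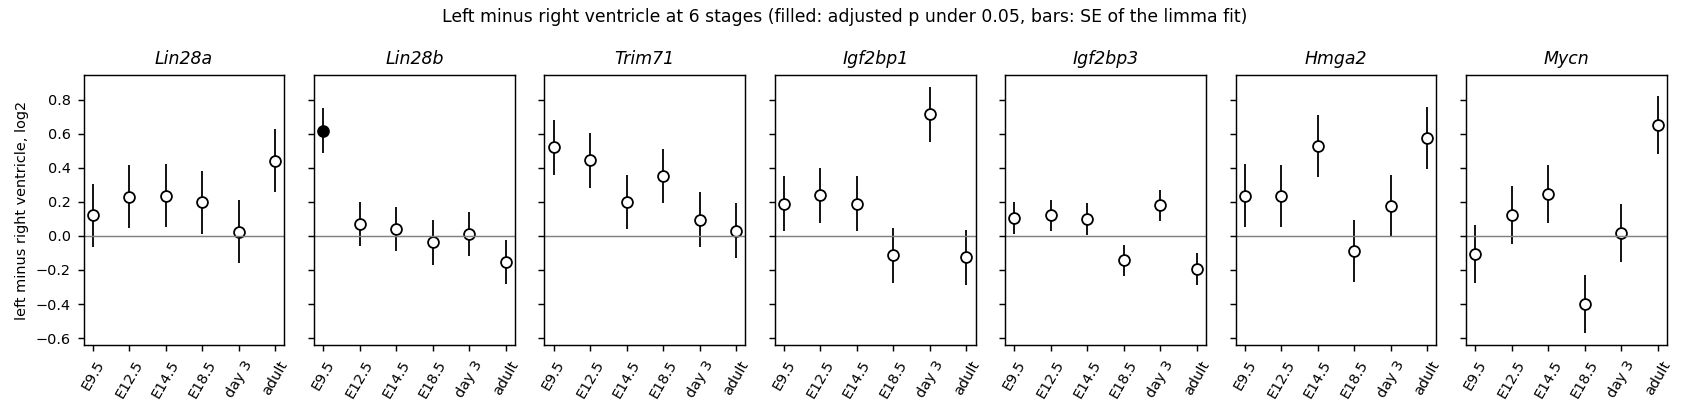
Left minus right ventricle difference of each gene at 6 stages (log2), with the SE of the limma fit as bars and filled points where the adjusted p was under 0.05. The 1 filled point is Lin28b at E9.5 (0.62). Igf2bp1 at day 3 (0.71) and Mycn in the adult (0.65) stand highest among the open ones.

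Genes of the surrounding pathways were counted from lists of known function. In the adult relative to E9.5, the comparison most of these counts use, 74.6% of all genes were called, 33.0% lower and 41.7% higher. The let-7 and miRNA processing list held 23 genes, and between E9.5 and the adult 18 of them fell and 3 rose, with a median of -0.92 beside 0.13 over all genes. Ago4, an Argonaute protein of the silencing complex, was among the 3 that rose, with stage means of 5.22 at E9.5, 6.42 at E12.5 and 8.15 in the adult (adult minus E9.5 2.93, adjusted p = 1.14e-14). Khsrp, which promotes let-7 processing, fell by 1.51, and Ddx17, a helicase of the Drosha complex, by 1.75 over the same span. Tnrc6c, a partner of Argonaute, rose by 0.86.

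Of 28 other known let-7 target genes, 21 fell and 6 rose in the adult relative to E9.5, with a median of -1.37 (74.6% of all genes called). Nr6a1, an orphan nuclear receptor, had stage means of 9.78 in ESC, 11.13 at E7.5, 9.62 at E8.5, 7.43 at E9.5 and 5.24 at E12.5. It fell by 2.19 at E12.5 relative to E9.5 (adjusted p = 3.08e-10). Ccnd2, a D-type cyclin, fell by 2.50 and Thbs1, a matrix glycoprotein, by 1.23 in the adult relative to E9.5, and Col3a1, a fibrillar collagen, rose by 1.35. At E12.5 relative to E9.5, the step of the largest Lin28a fall by the probe set used, 12 of the 28 fell and 4 rose. There 38.2% of all genes were called, and the median of the 28, 0.03, lay beside 0.05 over all genes.

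Among 15 RNA targets of TRIM71 and the IGF2BP proteins, 9 rose and 5 fell in the adult relative to E9.5 (74.6% of all genes called), and at E12.5 relative to E9.5 6 rose and none fell, where 38.2% of all genes were called in either direction. At that step 9 of the 15 were not called, so the share of called genes lay near that of all genes. Known TRIM71 targets among those that rose were Rbl2, an RB family protein, by 1.16, Egr1, an early-response transcription factor, by 0.84, and Cdkn1a, a cell cycle inhibitor, by 0.74 (largest adjusted p = 0.000823). They are named for their summed change over all steps, and a part of Trim71 in their rise was not tested. Igf2, the growth factor whose message gave the IGF2BP family its name, had stage means of 8.87 in ESC, 13.90 at E9.5, 13.07 at day 3 and 9.20 in the adult. It fell by 4.71 in the adult relative to E9.5 (adjusted p = 1.45e-18).

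Of 20 MYC and MYCN target genes 19 fell and none rose in the adult relative to E9.5, with a median of -2.03 (74.6% of all genes called, 33.0% lower). Mcm7, a replication helicase subunit, fell by 4.11, Nop58, a nucleolar protein, by 3.27, Cdk4, a G1 kinase, by 3.15 and Id2, an inhibitor of differentiation factors, by 2.66. At E12.5 relative to E9.5 17 of the 20 fell (38.2% of all genes called), when Mycn fell by 0.51. The 12 MYC family members and partners had 4 higher and 5 lower in the adult than at E9.5, a share of called genes near the 74.6% of all genes. Mlxipl, a glucose-responsive factor, rose by 2.94 and Mxd4, a MYC antagonist, by 0.51, while Mxd3, another antagonist, fell by 0.38. Mycl had stage means of 8.26 in ESC, 6.34 at E8.5 and 4.52 at E9.5, and was not called in the adult relative to E9.5 (-0.22, adjusted p = 0.279).

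Of 8 other HMG chromatin protein genes 7 fell and none rose in the adult relative to E9.5 (74.6% of all genes called, 33.0% lower). Hmgb2, which marks cycling cells, fell by 5.23, and Hmgn3, a nucleosome-binding protein, Hmgxb4 and Hmgb3 changed by -2.35, -1.05 and -0.86. Markers of dividing cells fell with these lists, 9 of 9 in the adult relative to E9.5, while 10 of 10 leukocyte markers rose, with a mean level of 8.92 to 9.68 in the adult, against 5.21 to 5.45 at E9.5. Their part in the list counts was not tested. With arrays scaled to housekeeping genes the median over all genes shifted by 0.30 for adult minus E9.5, and the counts then read 16 lower and 3 higher for miRNA processing, 19 and 6 for let-7 targets, 18 and 0 for MYC targets, and 6 and 1 for HMG genes. For TRIM71 and IGF2BP targets they read 4 lower and 9 higher, and for the MYC family 2 lower and 5 higher, the one list whose median changed sign (0.10 scaled, -0.20 unscaled).

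By Pearson's r over the 15 group means, a description with no test, the genes most like each member were the following. Sall4, a zinc finger factor of pluripotent cells, came first for both Lin28a (0.99) and Trim71 (0.99), with means of 12.38 in ESC, 9.30 in left ventricles at E9.5 and 5.96 in adult left ventricles. Nr6a1 (0.98) and Krt8 (0.96), an epithelial keratin, followed for Lin28a, and Ly75 (0.98) and Gldc (0.98) for Trim71. For Hmga2 they were Cadm1 (0.97), Bex2 (0.97) and Hunk (0.96), and for Mycn Lmnb2 (0.99), a lamin, Smarcad1 (0.99) and Mtf2 (0.99). Ccdc6 (0.98), Foxk1 (0.98) and Brwd3 (0.98) came nearest to the probe set used for Igf2bp3, and Neurl1a (0.97), Zswim6 (0.97) and Iars (0.96) to that of Igf2bp1. For Lin28b the highest r was 0.81, with Gnal, followed by Fbxo16 (0.81) and Bcorl1 (0.79). Between members, Igf2bp3 and Hmga2 had an r of 0.96 and Hmga2 and Mycn one of 0.90.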

How the data were processed

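RNA of pools or single hearts was labelled from 100 ng and hybridised to 45 Affymetrix arrays. The authors deposited log2 expression values made with RMA, per the submitters' processing notes; the version is not given in the sources used here. From the 45101 probe sets, 64 controls were left out, 34958 carried 1 gene symbol in the platform annotation, and each of 18145 genes was read from its probe set of highest mean. Symbols were updated through RefSeq tables (GRCm38.p6).

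Stages were compared with limma 3.58.1 (R 4.3.3) on 27 values, the left and right ventricle of one replicate number averaged (18 residual degrees of freedom). Ventricles were compared over all 45 arrays (30 degrees of freedom). P-values were adjusted by Benjamini-Hochberg over all genes, with a threshold of 0.05. Figures were drawn with Matplotlib 3.10.9. On simulated data for E12.5 minus E9.5 over 18145 genes, 69 genes were changed by 0.5, 72 by 1 and 59 by 2 (log2). The fit recovered 66.7%, 100% and 98.3% of them, and 14 of 190 calls were false. In the data 38.2% of genes were called at that step, a far larger share than was changed in the simulation. The rates therefore need not hold for the data.

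Whether equal replicate numbers mark the same pool was checked by correlating deviations of left and right ventricles from their group means. All 3 numbers lay over 0.1 only at E12.5 (0.271, 0.320 and 0.369), so the left-right fit carried no block, while the stage fit only averaged equal numbers. With the block at E12.5 Trim71 differed by 0.44 (adjusted p = 0.281, and 0.294 without it). Not all labels say that replicates came from separate pools, so p-values measure the spread between these arrays, and 3 arrays a group limit the precision. No 2 arrays held identical values.

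The genes named were all members, the 3 most similar genes of each by Pearson's r over group means (among genes that span at least 50% of that member's range), and up to 4 genes a list with the largest summed change. The members and lists were chosen with earlier results of these data known. Alternatives tried were other probe set rules, 1 ventricle only, housekeeping scaling, a filter on low values, stricter thresholds, trended robust eBayes, only the groups compared, a replicate block and each replicate left out.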

Additional observations from a re-analysis of the deposited data

How the results depend on the processing

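All 7 members stayed lower in the adult than at E9.5 in each fit that left out 1 replicate, and the falls of Lin28a and Trim71 at E12.5 kept direction and call in every alternative tried. The adult rise of Igf2bp1 relative to day 3 reversed to -1.48 with the probe set of largest variance and to -0.37 with the mean of all probe sets. With right ventricles only, Lin28b at E18.5 relative to E9.5 read 0.0453 (adjusted p = 0.757). Requiring a 2-fold change left 2 members at E7.5, 1 at E8.5, 2 at E9.5, 3 at E12.5, 2 at E14.5, 2 at E18.5 and 0 at day 3, each relative to the stage before, 4 for adult minus E9.5, and 0 for left minus right at E9.5 and as the mean of 6 stages. At day 3 relative to E18.5, left ventricles only gave 1 member and a fit of only the groups compared gave 5. Scaling to housekeeping genes gave 5 in the adult relative to day 3, adding Lin28a (0.50) and Igf2bp3 (0.41) as higher. It ended the call of Igf2bp1 in the adult relative to E9.5 (-0.25, adjusted p = 0.0647).

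For left minus right ventricles at E9.5, the count was 2 with the mean of all probe sets, 2 with housekeeping scaling, and 0 with a filter on low values or only the groups compared. At E12.5 it was 1 with only the groups compared, and at E14.5 1 with the mean of all probe sets. As the mean of 6 stages it was 1 with the probe set of largest variance, 1 with the mean of all probe sets and 0 at an adjusted p under 0.01. Leaving out 1 array gave 0 to 2 members at E9.5, 0 to 2 in the adult and 1 to 2 as the mean. Leaving out the 9 arrays of raised markers, chosen after seeing the data, gave 3, 2 and 4.

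With a replicate block, Mycn became called at E9.5 relative to E8.5 (-0.39, adjusted p = 0.0277), at E14.5 relative to E12.5 (-0.41, adjusted p = 0.0377) and at day 3 relative to E18.5 (-0.41, adjusted p = 0.0283), and no other call of these members changed. Housekeeping scaling moved the median of all genes by 0.30 at E7.5 relative to ESC, -0.18 at E9.5 relative to E8.5, -0.11 at day 3 relative to E18.5, and 0.32 and 0.30 in the adult relative to day 3 and E9.5. The share of called genes that were lower was then 18.7% scaled and 50.9% unscaled, 84.8% and 52.3%, 78.6% and 50.9%, 20.0% and 54.2%, and 29.4% and 44.2%, and for E18.5 relative to E9.5 38.3% and 48.5%. Except where stated, the causes were not tested. Signal near background limits Lin28b throughout and Lin28a from E12.5.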
